A study of Mus musculus with 8 samples.

Results

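The microRNAs (miRNAs) of the miR-23, miR-27 and miR-24 clusters were examined in cultured mouse articular chondrocytes, which build and maintain the cartilage of joints. They were chosen by name as the 9 entries mmu-miR-23a-3p, mmu-miR-23b-3p, mmu-miR-27a-5p, mmu-miR-27a-3p, mmu-miR-27b-5p, mmu-miR-27b-3p, mmu-miR-24-3p, mmu-miR-24-1-5p and mmu-miR-24-2-5p, out of 1966 names in the count table. High-throughput miRNA sequencing had been performed on primary chondrocytes that were digested from the femoral heads of wild-type mice aged 3 weeks and cultured in serum-containing medium. For 24 h the cells received either vehicle (Vehicle, n = 4 libraries) or the proinflammatory cytokine interleukin-1β (IL-1β) at 1 ng/ml (IL-1β, n = 4 libraries). The labels set the groups apart by nothing else, and the question was which miRNAs respond to IL-1β. It was not stated whether the 4 libraries of a group came from separate animals or cultures, so p-values measure the spread between these libraries only.

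A mature miRNA derives from either side of a hairpin precursor, named its 5p or 3p arm, and lowers the output of mRNAs that pair with its seed, the bases near its 5′ end. The hairpins of miR-23, miR-27 and miR-24 lie next to each other in a pair of duplicated clusters, an a cluster and a b cluster, each of which can be made as a single primary transcript. In other work miR-27b has been shown to lower Mmp13, the collagenase that degrades cartilage collagen, and miR-24 to lower the cell cycle inhibitor encoded by Cdkn2a, while miR-23 is known to lower glutaminase.

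The a cluster lies on the plus strand of chromosome 8 (GRCm38.p6, the mm10 build), with Mir23a at 84208518 to 84208592, Mir27a at 84208672 to 84208758 and Mir24-2 at 84208815 to 84208921, a span of 404 bases. It is outside annotated genes except for the last 2 bases of Mir24-2, which overlap an exon of the long non-coding RNA Gm26532. The b cluster spans 792 bases on the plus strand of chromosome 13, with Mir23b at 63300484 to 63300557, Mir27b at 63300712 to 63300784 and Mir24-1 at 63301208 to 63301275. It lies within the protein-coding gene 2010111I01Rik on the same strand and within introns of Fancc on the opposite strand. Mir23b is intronic in 2010111I01Rik, whereas Mir27b and Mir24-1 fall within exons that the annotation marks as untranslated in some transcripts. Both clusters thus hold the same 3 hairpins in the same order, and the count table lists miR-24-3p, whose sequence is the same at both loci, under a single name.

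Mature sequences were taken from RefSeq (GRCm38.p6), where 8 of the 9 names were matched, and mmu-miR-23b-3p was not. They are shown so that relatives of the a and b clusters can be compared, since this bears on how well their reads can be told apart. Each is written 5′ to 3′, and the capitals mark the seed, bases 2 to 8.
mmu-miR-23a-3p: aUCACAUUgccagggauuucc
mmu-miR-27a-3p: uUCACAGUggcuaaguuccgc
mmu-miR-27b-3p: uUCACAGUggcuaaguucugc
mmu-miR-24-3p: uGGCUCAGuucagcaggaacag
mmu-miR-27a-5p: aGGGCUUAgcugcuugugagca
mmu-miR-27b-5p: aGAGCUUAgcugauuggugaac
mmu-miR-24-2-5p: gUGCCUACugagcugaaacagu
mmu-miR-24-1-5p: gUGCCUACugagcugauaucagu

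The 3p arms of miR-27a and miR-27b share their seed and differ at 1 base, C19U (the base of miR-27a first, positions counted from 1 at the 5′ end). No other matched name in the table carried that seed or the seed of miR-23a-3p. Of the 1966 names 1675 were matched, and the seeds of the rest, miR-23b-3p among them, were not compared. The 5p arms of miR-27a and miR-27b differ at 8 positions, among them G3A inside the seed. The 5p arms of Mir24-2 and Mir24-1 share their first 16 bases and with them the seed. The seed of miR-24-3p was shared by miR-5124b, miR-6369, miR-6410 and miR-6413, of which miR-5124b had 1 count over all libraries and the others had 0. Whether reads that fit several places or either strand were counted was not stated, so the split between miR-27a-3p and miR-27b-3p is uncertain, and so is the count of miR-24-3p, whose 2 loci give the same read. The split between miR-23a-3p and miR-23b-3p is uncertain as well, since the sequence of miR-23b-3p was not matched.

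Library totals ranged from 616475 to 1568367 counts, so that a single count corresponded to 0.638 to 1.62 CPM (per 1e+06 counts in a library). The members took 6010 to 16250 counts per library. One library stood apart: over the 195 miRNAs that averaged 50 counts or more, the SD of the log2 deviations from the other libraries of the same group was 0.402 in IL-1β replicate 4 and 0.151 to 0.233 in the other 7 libraries. For this reason results that rest on this library are given with and without it. The 4 cartilage miRNAs looked for, the arms of miR-140 and miR-455, were all counted and summed to 155686 to 167664 CPM with vehicle and 123579 to 153426 CPM with IL-1β, ranges that did not overlap. Muscle miRNAs were at 0 (0 of 4 counted), endothelial miRNAs had 8 counts in all (1 of 2 counted, miR-126a-5p at 0), and epithelial miRNAs had 20 counts (4 of 6 counted, 0 to 1.58 CPM with vehicle and 1.62 to 10.1 CPM with IL-1β). Of 6 haematopoietic miRNAs 2 were counted, at 44.1 to 63.8 CPM with vehicle and 26.0 to 47.1 CPM with IL-1β, while miR-142a-3p, miR-223-3p, miR-451a and miR-144-3p were at 0. The part of these differences in the results was not tested, and in bulk RNA fewer cells of a type and less RNA per cell cannot be told apart.

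Chondrocytes of both groups contained all 5 of the 3p names, and miR-27b-3p was by far the most abundant. Over the 8 libraries it took 62442 of the 81410 member counts (76.7%, 95% Wilson interval 76.4 to 77.0%, counting error only) and ranked 21st of the 1966 names by mean normalized CPM (CPM on library totals scaled by the trimmed mean of M values). Next came miR-23b-3p (rank 67), miR-23a-3p (rank 72), miR-27a-3p (rank 92) and miR-24-3p (rank 137). The 5p arms of miR-27b, Mir24-2 and miR-27a followed at ranks 211, 214 and 217, and miR-24-1-5p stood at rank 663. All are of nearly the same length, so no length correction was made, but library preparation favors some sequences, and the order is one of counts rather than of molecules. The place of miR-24-3p in the order also depends on how reads of its 2 loci were counted, which was not stated for any library.

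This order held in every library for the 3p arms. The lowest value of miR-27b-3p in any library exceeded the highest of miR-23b-3p, and the same was true of miR-23a-3p over miR-27a-3p, of miR-27a-3p over miR-24-3p and of miR-24-3p over the 5p arms. The ranges of miR-23b-3p and miR-23a-3p overlapped, although miR-23b-3p was higher in 8 of 8 libraries. The 5p arms of miR-27b, Mir24-2 and miR-27a could not be ordered, because each was above the next in only 5 of 8 libraries.

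IL-1β changed none of the members past the threshold. Of the 9, 8 were tested, 0 were called by edgeR (an adjusted p under 0.05 together with an absolute log2 fold change over 0.3) and 0 had an unadjusted p under 0.05. Of all 564 miRNAs tested, 11 were called (1.95%), 8 higher and 3 lower, and 63 had an unadjusted p under 0.05. This number of calls was 6 without Vehicle replicate 4, 19 without IL-1β replicate 4 and 23 with 1 factor of unwanted variation in the model, and 0 members were among them each time. DESeq2 also called 0 of the members. The median log2 fold change of the 8 members was -0.03 and that of all tested miRNAs 0.01, and 3 members had a positive and 5 a negative value. In none of the 8 did the libraries of the groups separate, whereas the groups did not overlap for 43 of the 564 (7.62%). Together the members took 1.02% ± 0.0266 (SD, n = 4) of the counts of the Vehicle libraries and 1.03% ± 0.129 (SD, n = 4) of those of the IL-1β libraries. This share lay between 0.932% and 1.04% in 7 libraries and was 1.22% in IL-1β replicate 4.

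**Figure D1:**
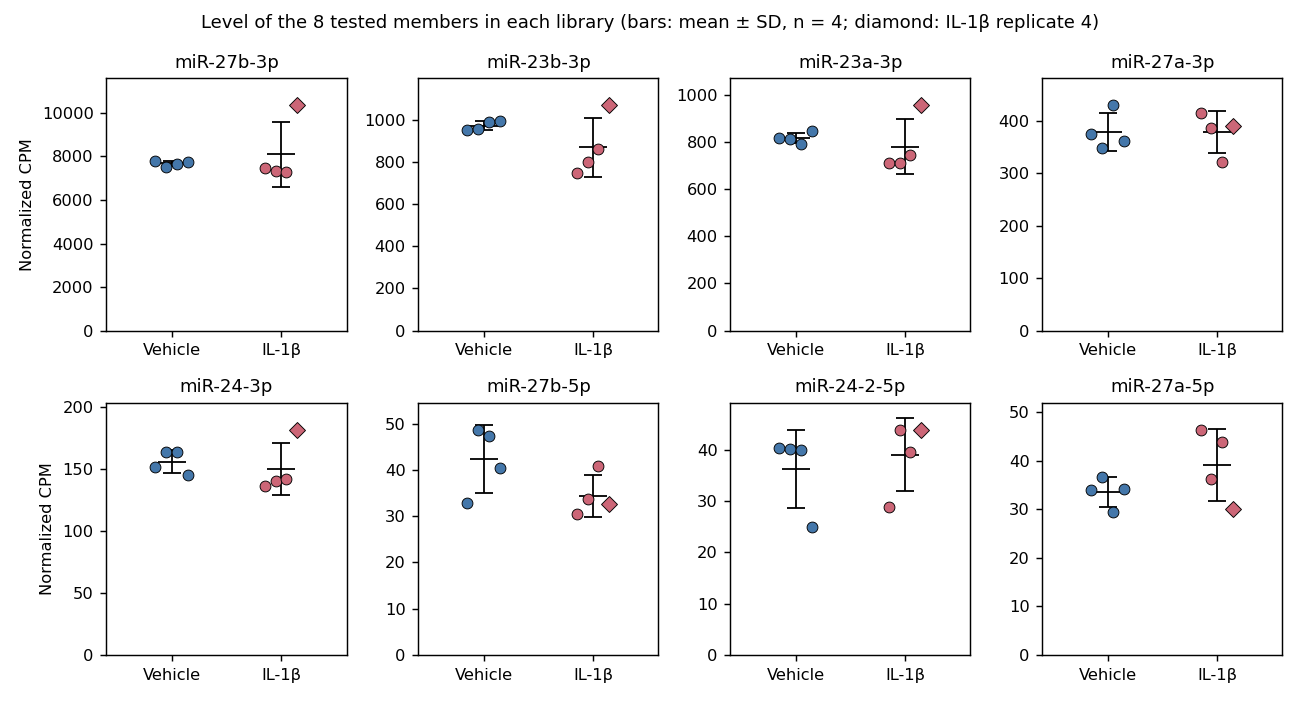
Normalized CPM (vertical axes, each from 0) of the 8 tested members in the 4 Vehicle (blue) and 4 IL-1β (red) libraries, with lines for mean ± SD and a diamond for IL-1β replicate 4. The diamond is the highest point for miR-27b-3p (10345), miR-23b-3p (1068), miR-23a-3p (956) and miR-24-3p (182), lies level with the highest of the others for miR-24-2-5p (43.9 against 43.8), and is the lowest IL-1β point for miR-27a-5p (30.1).

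Among the guide arms of the b cluster, miR-27b-3p was at 7801, 7510, 7661 and 7747 normalized CPM in Vehicle replicates 1 to 4 and at 7493, 7318, 7270 and 10345 in IL-1β replicates 1 to 4. The 4 Vehicle libraries lay close together, 3 IL-1β libraries lay just below them, and the remaining IL-1β library lay far above. The Vehicle mean was 7680 ± 127 and the IL-1β mean 8106 ± 1495 (SD, n = 4 each), a log2 fold change of 0.08 (SE 0.0986, 95% interval -0.13 to 0.28, edgeR adjusted p = 0.807). Without IL-1β replicate 4 the direction turned: the mean of the 3 other IL-1β libraries was 7360 ± 117 and the log2 fold change -0.06 (edgeR adjusted p = 0.745).

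The level of miR-23b-3p was 950.1, 954, 988 and 992 normalized CPM with vehicle and 749, 799, 862 and 1068 with IL-1β. Again 3 IL-1β libraries lay below all Vehicle libraries and IL-1β replicate 4 above them all. The means were 971 ± 22.1 and 869 ± 140.2 (SD, n = 4), and the log2 fold change of -0.16 (SE 0.0969, 95% interval -0.36 to 0.04) did not pass the test (edgeR adjusted p = 0.650). Without IL-1β replicate 4 it was -0.27 (95% interval -0.41 to -0.13) with an edgeR adjusted p of 0.0197, which is under 0.05, but the fold change stayed inside the limit of 0.3, so that miR-23b-3p was not called there either. Without IL-1β replicate 1 it was smaller, at -0.10 (edgeR adjusted p = 0.777).

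From the a cluster, miR-23a-3p was at 820, 813, 792 and 846 normalized CPM with vehicle and at 713, 710.5, 747 and 956 with IL-1β. The pattern was that of miR-23b-3p, with IL-1β replicate 4 above and the others below the Vehicle libraries. The log2 fold change was -0.06 (SE 0.0954, 95% interval -0.26 to 0.13, edgeR adjusted p = 0.852), and -0.17 without IL-1β replicate 4 (95% interval -0.32 to -0.03, edgeR adjusted p = 0.248). For miR-27a-3p the values were 375, 349, 429.8 and 361 with vehicle and 416, 388, 321 and 389.8 with IL-1β. Here the groups lay over each other, and IL-1β replicate 4 was among the others. Both means were 379 normalized CPM (SD 35.6 with vehicle and 40.3 with IL-1β, n = 4), and the log2 fold change was -0.00 (SE 0.101, 95% interval -0.21 to 0.20, edgeR adjusted p = 0.992), with values of 0.07 without Vehicle replicate 3 and 0.05 without IL-1β replicate 3.

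Encoded in both clusters, miR-24-3p was at 152, 164, 164 and 145 normalized CPM with vehicle and at 136, 141, 142 and 182 with IL-1β. Its IL-1β libraries were split in the same way as those of miR-27b-3p and the miR-23 pair. The means of 156 ± 9.46 and 150 ± 21.3 (SD, n = 4) gave a log2 fold change of -0.06 (SE 0.118, 95% interval -0.31 to 0.18, edgeR adjusted p = 0.882). Without IL-1β replicate 4 the log2 fold change was -0.17 (edgeR adjusted p = 0.549).

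The 5p arms are the minor products of these hairpins, and the 3 that were tested among the members were at 24.9 to 48.7 normalized CPM. miR-27a-5p was at 33.9, 36.7, 29.4 and 34.3 with vehicle and at 46.4, 36.2, 43.8 and 30.1 with IL-1β, a log2 fold change of 0.20 (SE 0.191, 95% interval -0.19 to 0.60, edgeR adjusted p = 0.757). miR-27b-5p was at 32.9, 48.7, 47.5 and 40.5 with vehicle and at 30.4, 33.7, 40.9 and 32.6 with IL-1β, a log2 fold change of -0.34 (SE 0.187, 95% interval -0.72 to 0.05, edgeR adjusted p = 0.591). Both therefore overlapped between the groups, the first with the higher and the second with the lower mean after IL-1β. The log2 fold change of miR-27a-5p ranged from 0.12 without IL-1β replicate 1 to 0.30 without IL-1β replicate 4. miR-24-2-5p was at 40.3, 40.0, 40.0 and 24.9 with vehicle and at 28.8, 43.8, 39.5 and 43.9 with IL-1β (log2 fold change 0.08, SE 0.193, 95% interval -0.32 to 0.48, edgeR adjusted p = 0.924). Its lowest value was in a Vehicle library and its next lowest in an IL-1β library. Its direction turned without Vehicle replicate 4 (-0.04) and without IL-1β replicate 2 (-0.02).

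Of miR-24-1-5p, 3 counts were found in all, 1 each in IL-1β replicates 1, 2 and 4, and it was not tested. The 0 counts of the Vehicle libraries allow up to 3 counts each, worth 1.91 to 4.87 CPM over all libraries, so that no difference was detectable at this depth. Of the 313 counts of both miR-24 5p names, 310 belonged to miR-24-2-5p (95% Wilson interval of the share 97.2 to 99.7%). The minor arms of the miR-23 hairpins were also near this floor, with 47 counts in all for miR-23a-5p (edgeR log2 fold change -0.43, adjusted p = 0.777) and 34 for miR-23b-5p (edgeR log2 fold change -0.91, adjusted p = 0.650). Opposite Mir24-1 and Mir24-2, the hairpins of miR-3074 lie on the minus strand, where miR-3074-5p overlaps miR-24-3p by 20 bases at both loci. miR-3074-5p had 35 counts over all libraries, miR-3074-1-3p had 8 and miR-3074-2-3p had 0, so the names on the opposite strand held few reads compared with miR-24-3p.

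In exact permutation tests on log2(normalized CPM + 1), which use no variance model, the 8 members had two-sided p-values from 0.171 to 1 over the 70 arrangements of the libraries, and from 0.686 to 1 after Benjamini-Hochberg adjustment over all tested miRNAs. The 95% intervals of the 3p arms in edgeR spanned at most -0.36 to 0.28 on the log2 scale, while those of the 5p arms reached from -0.72 to 0.60.

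**Figure D2:**
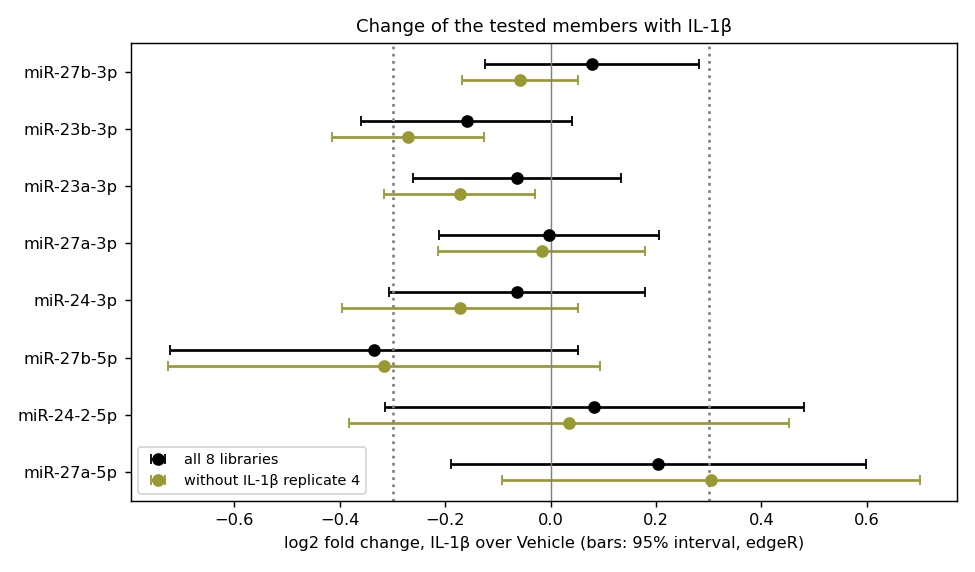
Log2 fold change of the 8 tested members, IL-1β over Vehicle, with 95% intervals from edgeR (horizontal axis), for all 8 libraries (black) and without IL-1β replicate 4 (olive), with dotted lines at the fold limit of 0.3 either way. All 8 black intervals include 0, and without IL-1β replicate 4 the intervals of miR-23b-3p (-0.41 to -0.13) and miR-23a-3p (-0.32 to -0.03) lie below 0.

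To avoid dependence on how reads were divided between near-identical relatives, the counts of each pair were summed and the fit repeated over 562 names, of which 10 were called. miR-23a-3p and miR-23b-3p together were at 1789 ± 33.3 normalized CPM with vehicle and 1651 ± 256 with IL-1β (mean ± SD, n = 4 each), a log2 fold change of -0.14 (SE 0.0892, 95% interval -0.32 to 0.05, edgeR adjusted p = 0.699). Without IL-1β replicate 4 it was -0.23 with an edgeR adjusted p of 0.0295, inside the fold limit, and it was -0.07 without IL-1β replicate 2 (edgeR adjusted p = 0.839). miR-27a-3p and miR-27b-3p together were at 8058 ± 138 and 8485 ± 1505 (SD, n = 4), a log2 fold change of 0.05 (SE 0.0912, 95% interval -0.14 to 0.24, edgeR adjusted p = 0.863), and -0.06 without IL-1β replicate 4. The summed pairs thus gave the same outcome as the single names.

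Since 4 members were split in the same manner, the IL-1β libraries were examined one by one, a comparison chosen after the values were seen and given without a test. In IL-1β replicates 1 to 3, miR-23a-3p, miR-23b-3p, miR-27b-3p and miR-24-3p were each below all 4 Vehicle libraries, which is 4 of the 8 tested members, against 32 of the 564 tested miRNAs (5.67%) that were lower in this way and 67 (11.9%) that did not overlap in either direction. No member was above all Vehicle libraries in replicates 1 to 3. The 4 members that were lower averaged 50 counts or more, as did 195 of the 564 tested miRNAs. The share among miRNAs of that level was not determined, so the 5.67% was not taken at a like level of counts. In IL-1β replicate 4 the same 4 members were above all other libraries, by 0.49 (miR-27b-3p), 0.41 (miR-23b-3p), 0.40 (miR-23a-3p) and 0.38 (miR-24-3p) on the log2 scale relative to the mean of replicates 1 to 3. Of the 195 miRNAs that averaged 50 counts or more, 91.8%, 88.7%, 88.2% and 87.2% had a lower difference between replicate 4 and the others, so these members were within the upper part of a library that deviated broadly. The fifth such member, miR-27a-3p, had a difference of 0.06, in the middle of these miRNAs (50.8% were lower). The 5p arms differed among themselves, from 0.25 for miR-24-2-5p to -0.47 for miR-27a-5p.

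**Figure D3:**
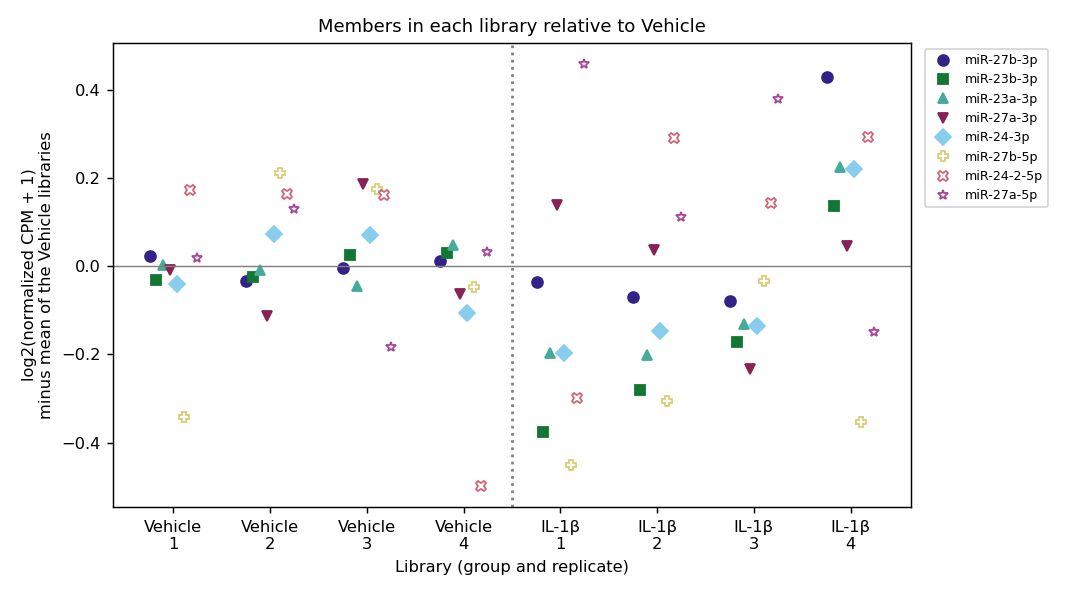
Deviation of each tested member from its Vehicle mean, as log2(normalized CPM + 1), in every library (filled symbols, 3p arms; open symbols, 5p arms), with Vehicle libraries left and IL-1β libraries right of the dotted line. In IL-1β replicates 1 to 3 the symbols of miR-23a-3p, miR-23b-3p, miR-27b-3p and miR-24-3p lie below 0 and in replicate 4 above 0, while miR-27a-3p does not follow them.

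Ratios within a library compare the products of both clusters, and where both names have many counts they depend little on its scaling. miR-23a-3p over miR-23b-3p was 0.863, 0.852, 0.802 and 0.853 with vehicle and 0.953, 0.889, 0.866 and 0.896 with IL-1β. Every IL-1β library, replicate 4 included, was above every Vehicle library. The means were 0.842 ± 0.0275 and 0.901 ± 0.0369 (SD, n = 4), a log2 difference of 0.10 with the smallest p that the exact permutation test can give (two-sided p = 0.0286), and with 0.0762 after Benjamini-Hochberg adjustment over 4 such ratios it did not pass the threshold. Of the summed miR-23 3p counts, miR-23a-3p took 46.2% (95% Wilson interval 45.4 to 47.1%). How reads were divided between both miR-23 names was not stated, so this ratio and this share hold only as counted.

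miR-27a-3p over miR-27b-3p was 0.0495 ± 0.00457 with vehicle and 0.0477 ± 0.00820 with IL-1β (mean ± SD, n = 4 each), a log2 difference of -0.06 (exact permutation two-sided p = 0.686) that was 0.04 without IL-1β replicate 4. miR-27a-3p thus made up 4.65% of the summed miR-27 3p counts (95% Wilson interval 4.50 to 4.82%), whereas in the miR-23 pair both names were nearly equal. Between the 5p arms of the same hairpins, miR-27a-5p over miR-27b-5p, the ratio was 0.816 ± 0.170 with vehicle and 1.14 ± 0.253 with IL-1β, a log2 difference of 0.49 (exact permutation two-sided p = 0.0571, adjusted 0.0762). As counted, and with the split of the 3p reads uncertain, miR-27a thus held a small share on the 3p side and a share close to that of miR-27b on the 5p side. For miR-24-2-5p over miR-24-1-5p the log2 difference was -0.75 (exact permutation two-sided p = 0.0571, adjusted 0.0762), a value set by the pseudocount of 1, since miR-24-1-5p had at most 1 count per library. This difference was -0.14 with a pseudocount of 5, -1.22 with 0.5 and -0.43 without IL-1β replicate 1.

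The arm ratio of a hairpin compares 2 products of the same precursor. In miR-27a the 3p arm exceeded the 5p arm 11.1 ± 2.13-fold with vehicle and 9.75 ± 2.30-fold with IL-1β, and in miR-27b 182 ± 36.0-fold and 233 ± 56.9-fold (SD, n = 4). The hairpins of miR-27a and miR-27b were thus far apart in this ratio, with no overlap in any library (7.19 to 14.2 against 151 to 308). The log2 ratio of 5p over 3p differed between the groups by 0.20 in miR-27a (95% interval -0.37 to 0.78, limma adjusted p = 0.935) and by -0.35 in miR-27b (95% interval -0.78 to 0.08, limma adjusted p = 0.747). Single libraries moved both values: in miR-27a the difference was 0.08 without Vehicle replicate 3, 0.07 without IL-1β replicate 3 and 0.34 without IL-1β replicate 4, and in miR-27b it was -0.20 without IL-1β replicate 4. Of 142 hairpins, 0 were called with limma (0%), and 10 had an unadjusted p under 0.05.

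Between members of the a cluster, miR-23a-3p over miR-27a-3p was 2.17 ± 0.232 with vehicle and 2.08 ± 0.362 with IL-1β (mean ± SD, n = 4 each). For miR-24-3p, encoded at both loci, over miR-24-2-5p, encoded in the a cluster, it was 4.44 ± 0.927 and 3.92 ± 0.659. Neither ratio separated the groups. In the b cluster, miR-27b-3p over miR-23b-3p was 8.21, 7.87, 7.75 and 7.81 with vehicle and 10.01, 9.16, 8.43 and 9.69 with IL-1β. This ratio was higher in every IL-1β library than in any Vehicle library, with means of 7.91 ± 0.207 and 9.32 ± 0.689 (SD, n = 4), and IL-1β replicate 4 lay within the range of the other IL-1β libraries. The groups also did not overlap for miR-27b-3p over miR-23a-3p, which was 9.40 ± 0.239 with vehicle and 10.3 ± 0.455 with IL-1β, and here IL-1β replicate 4 was the highest library (10.8). These ratios were chosen after their values were seen and have no test: of the 28 ratios between tested members 3 did not overlap between the groups (10.7%), or 3 of 10 between the members that averaged 50 counts or more, against 2873 of 18915 pairs of miRNAs of that level (15.2%).

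**Figure D4:**
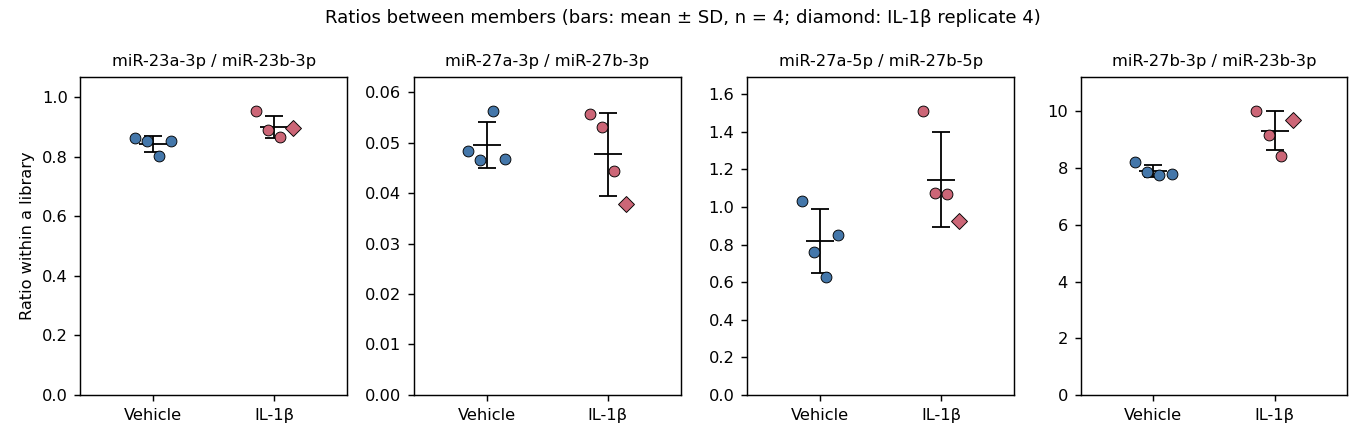
Ratios between members within each library (vertical axes from 0) in the 4 Vehicle (blue) and 4 IL-1β (red) libraries, with lines for mean ± SD and a diamond for IL-1β replicate 4. The groups do not overlap for miR-23a-3p over miR-23b-3p (at most 0.863 with vehicle and at least 0.866 with IL-1β) or for miR-27b-3p over miR-23b-3p (at most 8.21 and at least 8.43), and they overlap for both miR-27a over miR-27b ratios.

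The miRNAs whose profiles over the 8 libraries were most like those of the leading member of each seed family were sought among 190 other miRNAs that averaged 50 counts or more, by the root mean square difference of centred log2 levels. Nearest to miR-23b-3p were miR-409-3p (0.0436), miR-434-5p (0.0815) and miR-26a-5p (0.0829), against a median of 0.212 over all 190. The relative miR-23a-3p, at 0.0670, was nearer than all but the first of these, whereas miR-27a-3p was at 0.213. Nearest to miR-27b-3p were miR-99b-5p (0.0653), let-7f-5p (0.0672) and miR-98-5p (0.0687), with a median of 0.218. Its seed relative miR-27a-3p was at 0.178 and its b cluster neighbour miR-23b-3p at 0.136, both farther than miR-24-3p at 0.101 and miR-23a-3p at 0.0821. Nearest to miR-24-3p were miR-181b-5p (0.0448), let-7d-5p (0.0711) and miR-409-3p (0.0723), with a median of 0.193, and miR-23a-3p was at 0.0780. All of these values share the same 8 libraries, in which IL-1β replicate 4 holds much of the spread, and they are a description without a test.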

How the data were processed

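Mature miRNAs were counted in 8 libraries of cultured mouse chondrocytes, 4 per group, and groups were taken from the sample labels. The authors deposited raw counts per miRNA name. According to the submitters' processing notes and the methods, reads were trimmed with cutadapt, aligned to mm10 with STAR (2.4.2a in the notes) and counted with featureCounts. The treatment of reads that map to several places and of strand was not given in the sources used here. A correction for unwanted variation is described in the methods, but the deposited values, whole numbers whose sums differ between libraries, were used as uncorrected counts.

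Names above 1 CPM in at least 4 of 8 libraries were tested with edgeR 4.0.16 (quasi-likelihood, robust, two-sided, TMM scaling, group only) in R 4.3.3. SE is the absolute log2 fold change divided by the square root of F. Arm ratios were tested with limma 3.58.1 (trend, robust) and other ratios with exact permutation tests, on normalized CPM plus a pseudocount of 1. In the main fit p-values across names were adjusted by the Benjamini-Hochberg method over the 564 tested names. Those of arm ratios were adjusted over 142 hairpins and those of the other tested ratios over 4. The edgeR and limma steps were tested on simulated data in which every name had the same spread. Among names averaging 50 counts or more, edgeR recovered 22.1% of 1.2-fold and 91.9% of 1.5-fold changes. Over all names it recovered 43.8% of 1.5-fold changes, and limma recovered 41.4% of arm changes of at least 2-fold. Named miRNAs were all members, the other arms of their hairpins, the opposite-strand hairpins, names sharing a seed with a 3p member, the 3 nearest profiles per family and, in the check of cell types, listed marker miRNAs. Members, lists and tests were chosen with earlier results of these data known. Alternatives were other scaling, filters, pseudocounts, DESeq2 1.42.0, a replicate block, 1 factor of unwanted variation and leaving out each library. Counting intervals and floors cover counting error only, since no molecular identifiers were described. No pair of libraries of a group was alike within sampling noise.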

Additional observations from a re-analysis of the deposited data

Results flagged for a closer look

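In 7 of 33 groups of 4 libraries examined, the highest or lowest library lay far from the others, with a gap to its nearest neighbour past Dixon's 95% critical value. By chance about 1 in 20 groups would do so, and the 33 groups share libraries and counts, so they are not independent. In IL-1β replicate 4, miR-27b-3p was at 10345 normalized CPM (gap 0.928 of the range over the 4 libraries), miR-24-3p at 182 (0.874), miR-23a-3p at 956 (0.853) and the sum of miR-27a-3p and miR-27b-3p at 10734 (0.899). All 4 values belong to the library whose deviations were widest over 195 miRNAs. In Vehicle replicate 4, miR-24-2-5p was at 24.9 normalized CPM (0.980), and its ratio over miR-24-1-5p at 25.9 (0.980) repeats that value, because miR-24-1-5p was at 0 there. In Vehicle replicate 3, the ratio of miR-27a-3p over miR-27b-3p was 0.0562 (0.830), just past the limit.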

How the results depend on the processing

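The number of members called was 0 under all 15 alternatives. Of all tested miRNAs, 11 were called, 19 with the replicate number as a block (replicate block), 23 with 1 factor of unwanted variation, and 6 to 19 when single libraries were left out (7 without Vehicle replicate 2, 6 without Vehicle replicate 4, 7 without IL-1β replicate 3 and 19 without IL-1β replicate 4). The direction of members close to no change turned when a library was left out: the log2 fold change ranged from -0.052 to 0.066 for miR-27a-3p, -0.044 to 0.18 for miR-24-2-5p, -0.059 to 0.11 for miR-27b-3p and -0.058 to 0.12 for the summed miR-27 pair, and the log2 ratio of miR-27a-3p over miR-27b-3p from -0.14 to 0.043. With single libraries left out, the log2 fold change also ranged from -0.17 to -0.03 for miR-23a-3p, -0.27 to -0.10 for miR-23b-3p, -0.23 to -0.07 for the summed miR-23 pair, -0.17 to -0.03 for miR-24-3p, -0.44 to -0.26 for miR-27b-5p and 0.12 to 0.30 for miR-27a-5p. These and the other results kept their direction and their side of the threshold. The cause of these shifts was not tested.

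Libraries with the same number did not vary together (correlations of 0.17, -0.34, 0.10 and -0.18 over 195 miRNAs for numbers 1 to 4), and not every library correlated best with its own number, so the numbers were not taken as pairs. With the block the log2 fold change was -0.17 for miR-23b-3p (edgeR adjusted p = 0.674) and -0.32 for miR-27b-5p (edgeR adjusted p = 0.743), and miR-23a-3p over miR-23b-3p had an exact p of 0.125, the smallest that 4 sign flips allow. Of the arm ratios, 0 of 142 hairpins were called, 1 with a pseudocount of 5, 1 of 57 with at least 10 counts per arm and 1 of 134 without IL-1β replicate 4. The 5p arms had fewer counts and wider intervals than the 3p arms (the part of depth was not tested), and miR-24-1-5p, with 3 counts in all, was under the filter.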
